A study of Homo sapiens with 12 samples.

Results

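The 39 human HOX genes of the HOXA, HOXB, HOXC and HOXD clusters were followed in HEK293T cells given an inhibitor of lysosomal acidification, with or without added iron. Members were selected by symbol alone, as every entry named HOX with a cluster letter and a paralogue number. This gave 39 of 56337 genes in the table: 11 HOXA, 10 HOXB, 9 HOXC and 9 HOXD genes. No expression value entered that rule, but the family came to notice through the low HOXA13 level in BafA1 cells. The change of HOXA13 between BafA1 and control cells is therefore given as a description, with no test.

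HEK293T, here wild type, is a human embryonic kidney line transformed with, among others, SV40 large T antigen, so its HOX pattern is that of 1 transformed line and of no tissue. FAC+BafA1 cells were loaded with iron for 24 h, as 0.1 mg/ml of the salt ferric ammonium citrate (FAC), before 24 h of bafilomycin A1 (BafA1) at 10 nM. BafA1 cells received the same BafA1 dose without FAC, FAC cells the iron salt without BafA1, and control (Ctrl) cells neither. BafA1 blocks the V-ATPase, the proton pump that acidifies endosomes and lysosomes. Iron bound to transferrin is normally freed in acid endosomes, and iron bound to ferritin in lysosomes. Each of the 4 groups had 3 libraries of polyadenylated RNA, 12 in all, and the sources do not say that these came from separate cultures, so the spread between them may be technical.

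HOX genes encode homeodomain transcription factors that give cells their position along the head-to-tail axis and along the limbs. Their order on the chromosome follows their use in the embryo: low-numbered paralogues at one end act in the hindbrain and neck, and high-numbered ones at the other end act in the lower trunk, the limb tips and the genital tract. HOX proteins bind DNA with TALE cofactors (the PBX, MEIS and PKNOX families). Polycomb complexes keep the clusters silent where they are not used, MLL complexes keep them active, and retinoic acid and CDX factors open them during development.

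Promoters of HOXA9, HOXA13, HOXD10 and HOXD13 are shown because these genes carry the main contrasts below: a strong decrease with BafA1 in HOXA9 and HOXA13, a weaker one in HOXD13 and no called decrease in HOXD10. Each line gives the 250 bases before the RefSeq gene start on GRCh38.p14, 5′ to 3′ on the gene's strand. Capitals mark a CCAAT box or its reverse ATTGG, an E-box CACGTG, or a TATA box TATAAA or its reverse TTTATA. In HOXD13 a TATA box match on each strand overlaps the other.
HOXA9: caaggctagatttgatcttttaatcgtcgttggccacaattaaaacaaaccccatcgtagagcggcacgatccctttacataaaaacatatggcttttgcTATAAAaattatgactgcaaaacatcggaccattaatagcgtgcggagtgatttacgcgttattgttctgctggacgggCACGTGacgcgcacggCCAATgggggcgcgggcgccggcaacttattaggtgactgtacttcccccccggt
HOXA13: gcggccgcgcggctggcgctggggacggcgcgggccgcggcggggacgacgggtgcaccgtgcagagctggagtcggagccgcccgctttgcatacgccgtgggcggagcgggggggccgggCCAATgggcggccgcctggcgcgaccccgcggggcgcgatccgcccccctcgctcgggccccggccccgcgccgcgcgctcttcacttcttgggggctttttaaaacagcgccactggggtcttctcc
HOXD10: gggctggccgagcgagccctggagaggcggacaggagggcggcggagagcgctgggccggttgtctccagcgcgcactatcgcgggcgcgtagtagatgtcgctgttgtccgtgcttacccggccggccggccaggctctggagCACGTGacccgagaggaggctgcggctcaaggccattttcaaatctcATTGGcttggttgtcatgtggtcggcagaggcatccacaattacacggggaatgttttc
HOXD13: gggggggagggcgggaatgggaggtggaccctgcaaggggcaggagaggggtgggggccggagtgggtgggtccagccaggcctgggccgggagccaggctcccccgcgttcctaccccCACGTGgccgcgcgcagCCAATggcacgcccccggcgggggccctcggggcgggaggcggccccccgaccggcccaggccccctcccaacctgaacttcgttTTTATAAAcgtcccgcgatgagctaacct
The windows lie at chr7:27165538-27165787 (HOXA9, minus strand), chr7:27200092-27200341 (HOXA13, minus strand), chr2:176116528-176116777 (HOXD10, plus strand) and chr2:176092471-176092720 (HOXD13, plus strand). The table of promoters matched 20 of the 39 genes through 27 start sites. A CCAAT box on either strand was found before 18 of these 27 starts and before 32.0% of 35116 starts of all genes. The CACGTG box was found before 8 of 27 HOX starts and 6.34% of all starts, and the TATAAA box before 5 of 27 and 10.7%. The HOXA13 window had a GC content of 78.0% and 40 CG dinucleotides, a number reached by 2.16% of all starts, and the HOXA9 window had a GC content of 48.8% and 20 CG dinucleotides. These matches describe letters in a window and say nothing about binding.

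Values are FPKM, fragment numbers scaled by transcript length and library size, so levels of different genes may be compared per length. Changes were tested on log2(FPKM + 1) with limma over the 13682 genes averaging 1 FPKM or more over all libraries, and a gene was called at a Benjamini-Hochberg adjusted p under 0.05. The summed FPKM of a library was 634935 to 637999 in FAC+BafA1, 600261 to 604483 in BafA1, 640992 to 651311 in FAC and 637374 to 649406 in Ctrl cells. Of 13 markers chosen for HEK293T cells, 10 reached a mean of 1 FPKM (NEFH, PAX2 and LHX1 did not), against 0 of 8 keratinocyte and HeLa markers, 1 of 8 blood markers and 2 of 8 fibroblast markers (COL1A1 and TWIST2). The summed FPKM of the HEK293T markers was 752.36 to 758.36 in FAC+BafA1, 913.91 to 922.13 in BafA1, 509.29 to 524.1 in FAC and 523.86 to 530.79 in Ctrl cells; the part of this shift in the results was not tested. In bulk libraries, fewer expressing cells and less RNA per cell cannot be told apart.

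Neighbouring HOX genes share exons and face antisense transcripts, and whether counting used the strand is not given in the sources used here. In GENCODE release 44, 25 members share exonic bases with another gene (16 on the same strand, 20 on the opposite one) and 14 share none. Entries inside the clusters were also filled differently in FAC and other libraries. Of 97 entries there, 5 were above 0 in all 6 libraries with FAC and listed at 0 in all 6 without, and 3 showed the reverse. None of these was a HOX member. The clearest was a small RNA entry in HOXA, ENSG00000277694, at 25.85 to 45.4 FPKM with FAC and listed at 0 without. A processing difference between the libraries with and without FAC cannot be told apart from the iron itself, so comparisons across FAC are given after those within the same FAC state.

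HEK293T cells expressed HOX genes of all 4 clusters, most strongly those of the posterior end. The highest level in every group was that of HOXB9, a thoracic paralogue, at 67.0 ± 0.33 FPKM in FAC+BafA1, 63.5 ± 0.97 in BafA1, 60.3 ± 1.16 in FAC and 60.4 ± 1.12 in Ctrl cells (SD, n = 3 each). In Ctrl cells HOXA10 (48.07 to 49.92 FPKM) came next, then HOXD13 (47.23 to 47.66) and HOXA9 (45.9 to 47.7). The HOXA9 range covered that of HOXD13, so those neighbours in the order did not differ beyond their spread, whereas all HOXA10 values lay above both. HOXA5 (28.7 ± 0.62) and HOXB6 (24.9 ± 0.86) were the highest central genes in Ctrl cells. The lowest was HOXB1, a hindbrain gene, listed at 0 in 11 of 12 libraries and at 0.01 FPKM in 1 Ctrl library.

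**Figure D1:**
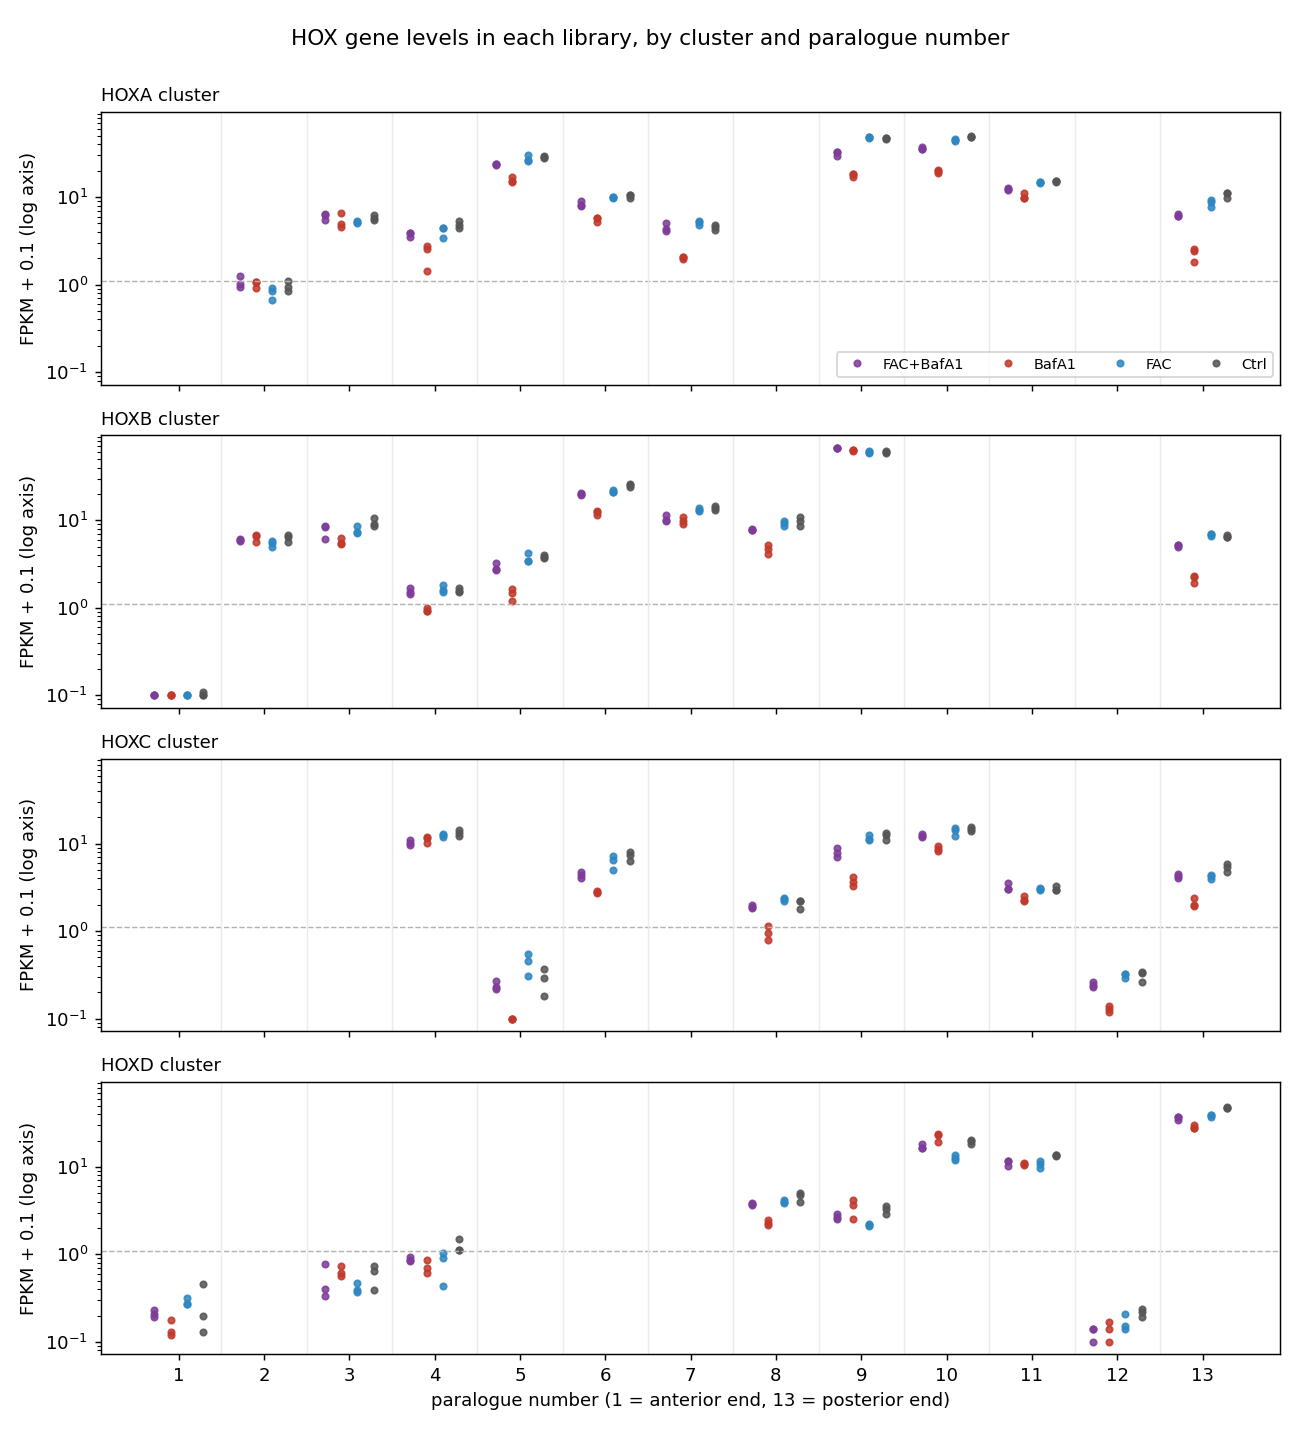
FPKM plus 0.1 on a log axis for 38 HOX genes, by cluster (panels) and paralogue number (x axis); each point is a library, coloured by group, and the dashed line is at 1 FPKM. In Ctrl cells levels are highest for HOXB9, HOXA10, HOXD13 and HOXA9. Other genes with these paralogue numbers are lower, such as HOXC13 (mean 5.24) and HOXD9 (3.17). The BafA1 points lie below the Ctrl points for most genes, but not for HOXB9 and HOXD10.

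Summed over paralogues, the 16 posterior genes (9 to 13) held 66.1% of all HOX FPKM in FAC+BafA1, 68.0% in BafA1, 65.7% in FAC and 65.9% in Ctrl cells. The 15 central genes (4 to 8) held 27.1%, 24.8%, 28.4% and 27.9% in the same groups, and the 8 anterior genes (1 to 3) held 6.79%, 7.17%, 5.91% and 6.26%. The order posterior, central, anterior held in all 4 groups. Of the 39 genes, 31 passed the mean of 1 FPKM used for testing. Just inside it was HOXB4 at a mean of 1.33 FPKM over all libraries, and just outside were HOXA2 at 0.864 and HOXD4 at 0.813.

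Most HOX genes were lower in BafA1 cells than in Ctrl cells. Of the 31 genes that passed the filter, 26 fell, HOXB9 rose, and 4 (HOXA3, HOXB2, HOXD9 and HOXD10) did not pass the test. HOXA13, the gene that drew notice to the family, is among the 26, and the other 30 genes gave 25 that fell, with a median log2 change of -0.74. Over all 13682 genes, 37.6% were called lower and 29.5% higher in the same comparison. That is 5141 lower and 4039 higher, a balance that turned to 4461 lower and 4634 higher with median-of-ratios scaling, under which 25 HOX genes were lower and 2 higher. The median log2 change was -0.77 over the 31 HOX genes and -0.04 over all genes tested, and the median ratio of means was 0.535. In 26 of the 31 genes all 3 BafA1 libraries were below all 3 Ctrl libraries, a count for which the share over all genes was not computed.

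The summed FPKM of HOXA was 82.47, 78.17 and 88.13 in BafA1 libraries, against 180.74, 180.79 and 186.16 in Ctrl libraries, a ratio of means of 0.454. HOXC gave a ratio of 0.543, HOXB of 0.781 and HOXD of 0.758, and all members together of 0.619. HOXB9 alone made up much of the HOXB sum, and HOXD10 did not fall, so the cluster sums mix unlike members. In each of the 4 sums all BafA1 libraries were below all Ctrl libraries.

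**Figure D2:**
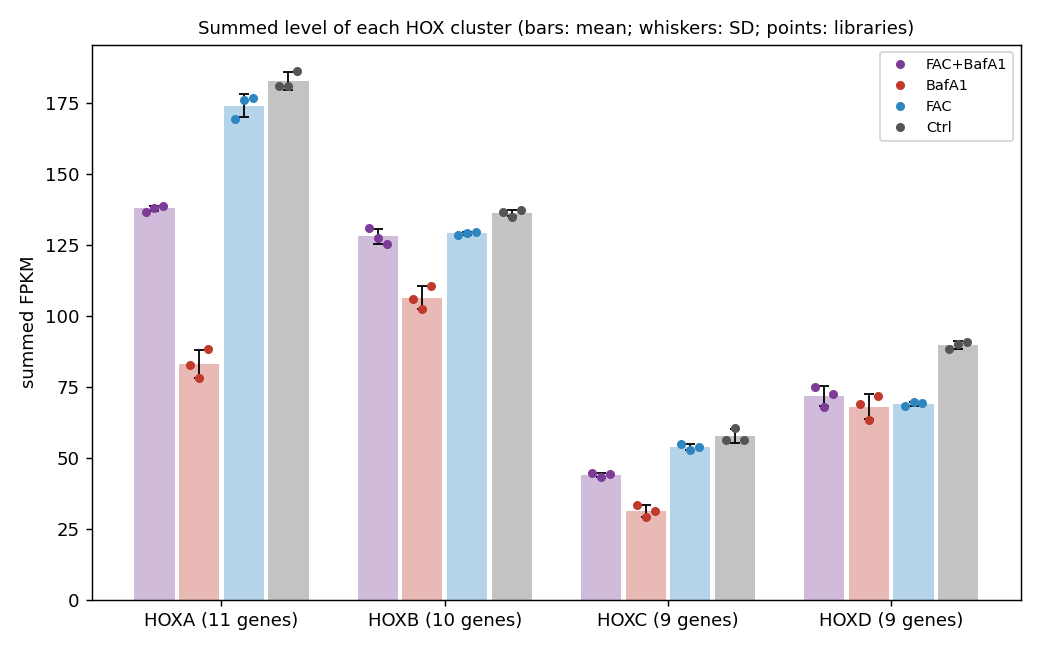
Summed FPKM (y axis) of each cluster in each group; bars are means, whiskers SDs and points the 3 libraries. HOXA is lowest in BafA1 cells (mean 82.9) and intermediate in FAC+BafA1 cells (137.8), and HOXD is at 68.0 to 71.7 in the 3 treated groups, against 89.7 in Ctrl cells.

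Among the posterior genes, HOXA13, which patterns the hand, foot and genital tubercle, had 2.47, 1.7 and 2.33 FPKM in BafA1 libraries, against 9.63, 10.93 and 10.99 in Ctrl libraries. That is 4.85-fold lower (log2 -1.87), the largest ratio among the members tested. HOXC9, a thoracic gene that sets motor neuron identity in mouse, had 4.09, 3.21 and 3.56 FPKM in BafA1, against 12.51, 13.08 and 10.85 in Ctrl libraries. It fell by 1.51 ± 0.10 on the log2 scale (adjusted p = 4.08e-08, limma). HOXA9, a regulator of blood stem cells that is often raised in leukaemia, had 18.1, 16.75 and 18.05 FPKM in BafA1, against 47.4, 45.9 and 47.7 in Ctrl libraries. Its decrease was 1.37 ± 0.04 log2 units below Ctrl (log2 -1.37, adjusted p = 1.41e-10). HOXA10, needed for uterine development in mouse, had 19.54, 18.56 and 20.57 FPKM in BafA1, against 49.07, 48.07 and 49.92 in Ctrl libraries (log2 -1.28 ± 0.04, adjusted p = 1.19e-10).

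HOXB13, a prostate and tail-end gene, had 2.21, 1.85 and 2.16 FPKM in BafA1, against 6.42, 6.67 and 6.33 in Ctrl libraries (log2 -1.28 ± 0.06, adjusted p = 3.87e-09). HOXC13, which acts in hair and nails, had 1.91, 1.85 and 2.26 FPKM in BafA1, against 4.67, 5.71 and 5.33 in Ctrl libraries (log2 -1.05 ± 0.08, adjusted p = 2.35e-07). All 3 BafA1 values of both genes were below all 3 Ctrl values. HOXD13, the digit-patterning gene, had 27.44, 27.85 and 30 FPKM in BafA1, against 47.23, 47.66 and 47.24 in Ctrl libraries (log2 -0.72 ± 0.04, adjusted p = 3.56e-08). HOXC10, a lumbar gene, had 9.18, 8.64 and 8.16 FPKM in BafA1, against 13.81, 15.23 and 14.75 in Ctrl libraries (log2 -0.69 ± 0.07, adjusted p = 2.81e-06). These genes also separated completely, with smaller ratios than HOXA13. HOXA11, which acts with HOXD11 in kidney and forearm formation in mouse, had 9.63, 9.8 and 10.99 FPKM in BafA1, against 15, 14.87 and 15.03 in Ctrl libraries (log2 -0.52 ± 0.05, adjusted p = 1.46e-06). HOXD11 had 10.83, 10.4 and 10.74 FPKM in BafA1, against 13.67, 13.15 and 13.42 in Ctrl libraries (log2 -0.31 ± 0.06, adjusted p = 0.00115). The last posterior member that fell was HOXC11, at 2.24 ± 0.18 FPKM in BafA1 and 2.96 ± 0.19 in Ctrl cells (log2 -0.29, adjusted p = 0.00398).

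A few posterior genes went the other way or did not move. HOXB9 had 63.65, 62.43 and 64.34 FPKM in BafA1, against 59.2, 60.57 and 61.41 in Ctrl libraries. It rose by 0.07 ± 0.03 log2 units (adjusted p = 0.0371), with all BafA1 values above all Ctrl values by a narrow margin. That call was lost in 4 of 12 fits that left out 1 library (Ctrl replicate 1 or 2, BafA1 replicate 1 or 3), and without the intensity trend, with log2 changes of 0.06 to 0.14 and adjusted p of 0.000814 to 0.124 over 20 alternatives. HOXD10, a lumbar and hindlimb gene, had 23.14, 19.36 and 23.81 FPKM in BafA1, against 18.39, 19.57 and 20.03 in Ctrl libraries (log2 0.18 ± 0.08, adjusted p = 0.0557). Its neighbour HOXD9 had 4.07, 2.42 and 3.59 FPKM in BafA1, against 3.51, 2.8 and 3.19 in Ctrl libraries (log2 0.05 ± 0.13, adjusted p = 0.759). The groups overlapped for both. HOXD10 passed the threshold when BafA1 replicate 2 or FAC+BafA1 replicate 1 was left out, with median-of-ratios scaling and at a mean of 5 FPKM or more, with adjusted p of 0.00431 to 0.205 over 20 alternatives.

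All 13 central genes that passed the filter fell with BafA1. HOXC6, a thoracic gene, had 2.7, 2.65 and 2.8 FPKM in BafA1, against 6.27, 7.91 and 7.24 in Ctrl libraries (log2 -1.13 ± 0.11, adjusted p = 2.25e-06). HOXB5, which acts in the enteric neural crest, had 1.38, 1.1 and 1.54 FPKM in BafA1, against 3.91, 3.72 and 3.64 in Ctrl libraries (log2 -1.03 ± 0.10, adjusted p = 1.27e-06). HOXB6 had 12.39, 11.48 and 12.69 FPKM in BafA1, against 25.71, 24.02 and 25.12 in Ctrl libraries (log2 -0.98 ± 0.04, adjusted p = 2.81e-09). The ratios of means were 0.38, 0.357 and 0.488 for these genes, with no overlap between the groups. HOXA4, a neck-level gene, had 2.44, 1.35 and 2.69 FPKM in BafA1, against 4.31, 4.66 and 5.29 in Ctrl libraries (log2 -0.89 ± 0.15, adjusted p = 0.000233). HOXA7 had 1.98, 1.87 and 1.99 FPKM in BafA1, against 4.14, 4.76 and 4.48 in Ctrl libraries (log2 -0.89 ± 0.08, adjusted p = 7.1e-07). HOXA7 shares 62.5% of its exonic bases with the antisense transcript HOXA-AS3, which was at 1.37, 1.1 and 1.25 FPKM in BafA1, against 3.97, 3.19 and 4.12 in Ctrl libraries.

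HOXB7 and HOXC4 fell by less than these. HOXB7 had 8.98, 9.8 and 10.87 FPKM in BafA1, against 13.93, 12.92 and 14.64 in Ctrl libraries (log2 -0.45 ± 0.08, adjusted p = 0.000224). HOXC4 had 11.96, 10.03 and 11.5 FPKM in BafA1, against 14.12, 13.15 and 12.22 in Ctrl libraries (log2 -0.22 ± 0.07, adjusted p = 0.0187). The HOXC4 call was lost without Ctrl replicate 1 or without BafA1 replicate 2, with median-of-ratios scaling and in a fit of the 2 groups alone, with adjusted p of 0.00922 to 0.0858 over 20 alternatives. HOXC4 and HOXC6 share 17.5% of the exonic bases of HOXC4 on the same strand, so the split of fragments between them is uncertain. The other central genes fell by log2 -0.93 (HOXB8), -0.84 (HOXA5), -0.79 (HOXA6), -0.77 (HOXD8), -0.68 (HOXC8) and -0.43 (HOXB4), with adjusted p of 9.05e-08 to 0.000425. Adding 1 FPKM shrinks the log2 changes of low genes, so ratios of means gave another order. By ratio HOXC8 (0.436) fell more than HOXB8 (0.477), and HOXB4 (0.57) more than HOXB7 (0.715).

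Among the anterior genes, HOXB3 fell, while HOXA3 and HOXB2 did not pass the test. HOXB3 averaged 5.59 ± 0.53 FPKM in BafA1 and 9.37 ± 1.02 in Ctrl cells (log2 -0.65 ± 0.12, adjusted p = 0.000349). HOXA3, a gene of the thymus and throat, averaged 5.23 ± 1.03 FPKM in BafA1 and 5.73 ± 0.34 in Ctrl cells (log2 -0.12, adjusted p = 0.314). HOXA3 passed the threshold only when BafA1 replicate 3 was left out (adjusted p = 0.0146). HOXB2, a hindbrain gene, averaged 6.25 ± 0.62 FPKM in BafA1 and 6.18 ± 0.63 in Ctrl cells (log2 0.01, adjusted p = 0.907). Across the 31 genes, the Ctrl level and the BafA1 change had a Pearson r of -0.09, a description over genes of the same libraries.

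With iron already present, BafA1 lowered fewer HOX genes and by less. Between FAC+BafA1 and FAC cells, 12 of the 31 genes fell, 2 rose (HOXB9 and HOXD10) and 17 did not pass the test. Over all genes tested, 9.49% were called lower and 9.76% higher. The median log2 change was -0.18 over the HOX genes and 0.00 over all genes, and the median ratio of means was 0.872. In 17 of the 31 genes all FAC+BafA1 libraries were below all FAC libraries, again without a computed share over all genes. Left-out libraries gave 10 to 14 calls, beside 13.4% to 19.3% of all genes.

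HOXA9 had 32.29, 32.52 and 29.46 FPKM in FAC+BafA1, against 48.21, 48.21 and 46.81 in FAC libraries (log2 -0.59 ± 0.04, adjusted p = 3.11e-06). HOXC9 had 7.76, 7 and 8.71 FPKM in FAC+BafA1, against 11.31, 10.94 and 12.56 in FAC libraries (log2 -0.52 ± 0.10, adjusted p = 0.00296). HOXA13 had 6.3, 5.94 and 6.04 FPKM in FAC+BafA1, against 7.54, 8.78 and 9.17 in FAC libraries (log2 -0.42 ± 0.10, adjusted p = 0.0112). In these genes all FAC+BafA1 values were below all FAC values, and the ratios were 1.52-fold, 1.48-fold and 1.39-fold lower. HOXB13 had 4.92, 5.1 and 5.15 FPKM in FAC+BafA1, against 6.8, 6.98 and 6.5 in FAC libraries (log2 -0.36 ± 0.06, adjusted p = 0.00199). HOXA10 had 35.65, 35.51 and 37.27 FPKM in FAC+BafA1, against 44.03, 46.37 and 45.47 in FAC libraries (log2 -0.32 ± 0.04, adjusted p = 0.000255). HOXA11 had 12.15, 11.94 and 12.59 FPKM in FAC+BafA1, against 14.74, 14.78 and 14.43 in FAC libraries (log2 -0.24 ± 0.05, adjusted p = 0.00528). The posterior HOXA genes thus fell in both iron states.

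HOXB7 had 11.38, 9.64 and 9.9 FPKM in FAC+BafA1, against 12.84, 13.87 and 12.99 in FAC libraries (log2 -0.34 ± 0.08, adjusted p = 0.00984). HOXC6 had 4.7, 4.28 and 3.99 FPKM in FAC+BafA1, against 7.14, 4.89 and 6.42 in FAC libraries (log2 -0.42 ± 0.11, adjusted p = 0.023). HOXC4 had 10.08, 11.03 and 9.61 FPKM in FAC+BafA1, against 11.65, 12.71 and 12.37 in FAC libraries (log2 -0.24 ± 0.07, adjusted p = 0.0419). All 3 separated completely between the groups. HOXA5 and HOXA6 fell too, at log2 -0.19 and -0.22 (adjusted p = 0.0408 and 0.0244). The calls of HOXA5, HOXA6, HOXC4 and HOXC6 were each lost in 4 to 8 of 12 fits that left out 1 library, FAC replicate 3 among them every time, with highest adjusted p of 0.125, 0.096, 0.136 and 0.0997.

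HOXB9 had 66.69, 67.05 and 67.34 FPKM in FAC+BafA1, against 60.11, 59.19 and 61.49 in FAC libraries. It rose by 0.15 ± 0.03 log2 units (adjusted p = 0.00267), with no overlap between the groups. HOXD10 had 18.29, 16.27 and 16.2 FPKM in FAC+BafA1, against 11.94, 12.66 and 13.5 in FAC libraries, and rose by 0.39 ± 0.08 log2 units (adjusted p = 0.00465). HOXD10 shares 18.2% of its exonic bases with HOXD11 on the same strand, and HOXD11 had 11.46, 10.26 and 11.58 FPKM in FAC+BafA1, against 11.66, 10.64 and 9.63 in FAC libraries (log2 0.06, adjusted p = 0.598). HOXD9 had 2.81, 2.55 and 2.42 FPKM in FAC+BafA1, against 2.02, 2.14 and 2.04 in FAC libraries (log2 0.23 ± 0.12, adjusted p = 0.236). All its FAC+BafA1 values lay above its FAC values, though it did not pass the test.

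Among genes that fell without iron but did not pass the test with it, HOXB6 had 20.65, 19.91 and 19.55 FPKM in FAC+BafA1, against 21.2, 21.27 and 21.96 in FAC libraries (log2 -0.10, adjusted p = 0.164). HOXD13 had 36.89, 34.11 and 37.3 FPKM in FAC+BafA1, against 36.97, 39.52 and 38.78 in FAC libraries (log2 -0.09, adjusted p = 0.195). HOXC13 had 4.41, 4 and 4.21 FPKM in FAC+BafA1, against 3.83, 4.3 and 4.17 in FAC libraries (log2 0.03, adjusted p = 0.856). The groups overlapped for HOXD13 and HOXC13 and separated for HOXB6 by a small step. HOXC10 had 12.62, 11.93 and 12.24 FPKM in FAC+BafA1, against 15.04, 14.39 and 12.27 in FAC libraries (log2 -0.16, adjusted p = 0.129). HOXB5 had 3.13, 2.66 and 2.59 FPKM in FAC+BafA1, against 3.3, 3.35 and 4.11 in FAC libraries (log2 -0.27, adjusted p = 0.0672). HOXC10 passed the threshold without FAC replicate 3 and with quantile normalization, with adjusted p of 0.0199 to 0.376 over 20 alternatives. HOXA4 had 3.39, 3.79 and 3.77 FPKM in FAC+BafA1, against 3.27, 4.39 and 4.32 in FAC libraries (log2 -0.10, adjusted p = 0.727). HOXA7 had 3.95, 4.2 and 4.92 FPKM in FAC+BafA1, against 4.76, 5.11 and 5.26 in FAC libraries (log2 -0.18, adjusted p = 0.134). HOXA7 passed the threshold without FAC+BafA1 replicate 3, at an adjusted p of 0.0488. The other 8 genes that did not pass ranged from log2 -0.23 (HOXB8) to 0.19 (HOXA3).

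**Figure D3:**
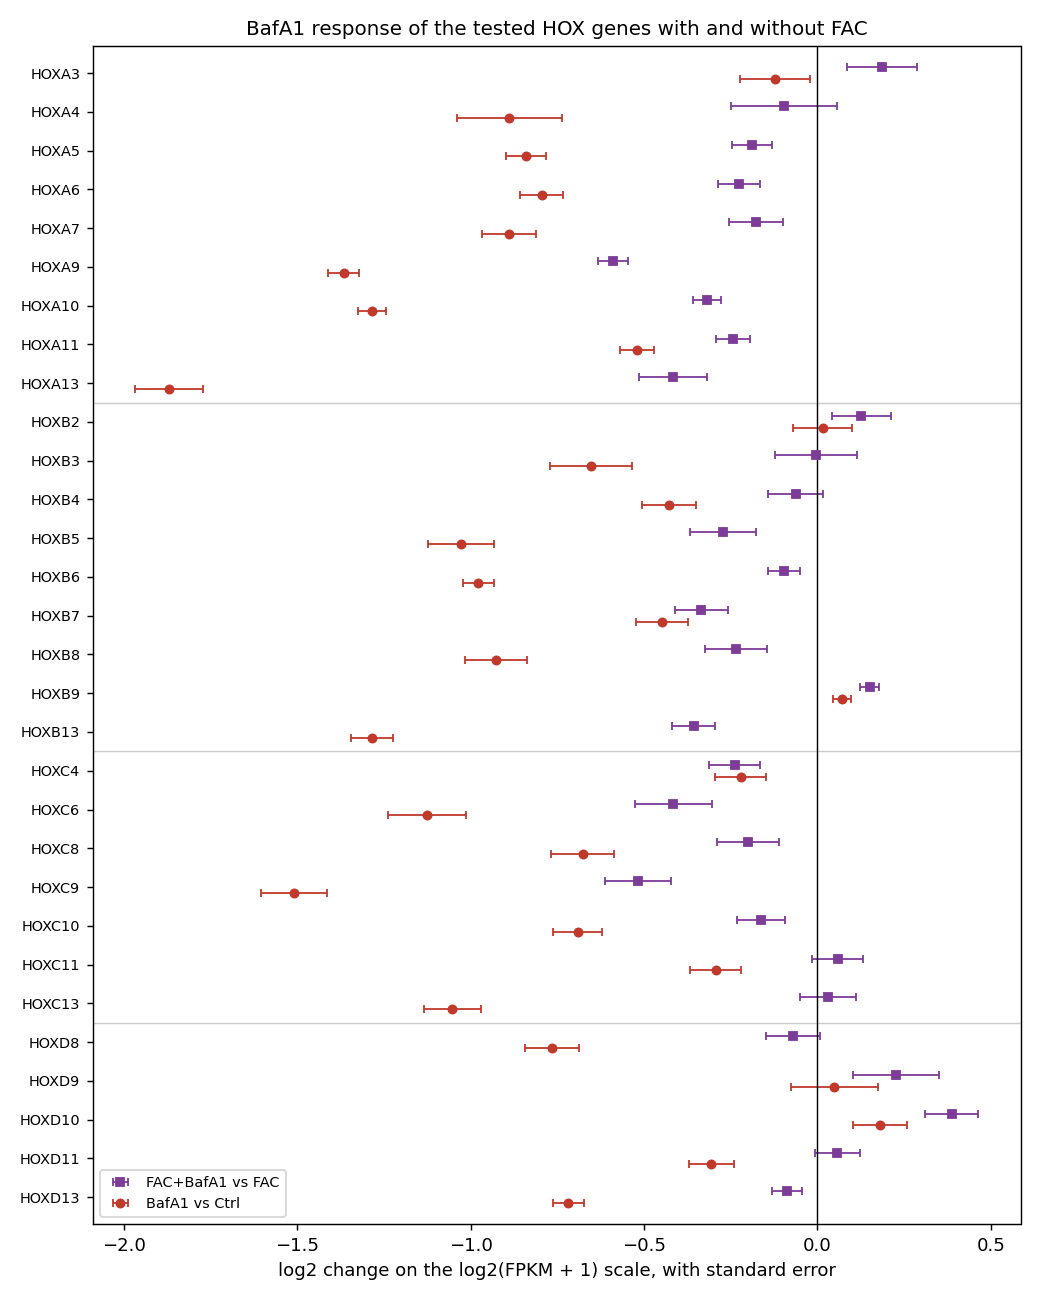
Log2 change (x axis) of 30 tested HOX genes, ordered by cluster and paralogue, for FAC+BafA1 against FAC (squares) and BafA1 against Ctrl (circles); whiskers are limma standard errors. The circles reach -1.87 (HOXA13), the squares no lower than -0.59 (HOXA9), and HOXB9 and HOXD10 lie right of zero in both.

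The difference between these 2 BafA1 changes was tested directly as the interaction of FAC and BafA1. It was called in 24 of the 31 genes, all positive, meaning that the change with iron was less negative than the change without. Leaving out HOXA13, it was called in 23 of 30 genes, with a median of 0.64. Over all genes tested, 29.5% had a positive and 20.6% a negative called interaction, and the median was 0.65 for the HOX genes and 0.07 for all genes. Of the positive and negative calls over all genes, 58.9% were positive without further scaling and 48.6% with median-of-ratios scaling, under which 24 HOX genes were again called. The groups of the 2 changes share no library. By sign, 23 of 31 genes were lower in both, and 12 were called lower in both, which is 12 of 26 without iron and 12 of 12 with it. The matching shares over all genes were not computed. The change without iron is part of the interaction, so the 2 are not independent. Of the 26 genes called lower without iron, 24 had a called positive interaction, a share not computed over all genes called lower. The exceptions were HOXB7 (0.11 ± 0.11, adjusted p = 0.407) and HOXC4 (-0.02 ± 0.10, adjusted p = 0.906), which were called lower in both iron states. The interaction sets libraries with FAC against libraries without, so a processing difference that alters a BafA1 change cannot be told apart from iron. Entries listed at 0 in every library without FAC share same-strand exonic bases with HOXA3, HOXA6, HOXC4 and HOXC6, among others.

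HOXA13 had the largest interaction, 1.45 log2 units, given without a test because its BafA1 change is part of it. That of HOXC13 was 1.08 ± 0.12 (adjusted p = 1.21e-05). HOXC9 (0.99 ± 0.13, adjusted p = 7.89e-05), HOXA10 (0.97 ± 0.06, adjusted p = 1.25e-07), HOXB13 (0.93 ± 0.09, adjusted p = 4.63e-06) and HOXB6 (0.88 ± 0.06, adjusted p = 5.74e-07) followed. The named central genes HOXA4 (0.79 ± 0.21, adjusted p = 0.00885), HOXB5 (0.76 ± 0.14, adjusted p = 0.000636) and HOXA7 (0.71 ± 0.11, adjusted p = 0.000213) came after these. This order holds on the log2(FPKM + 1) scale, which understates changes of low genes. HOXA9, which had the largest decrease with iron, had an interaction of 0.78 ± 0.06 (adjusted p = 1.35e-06). Genes that BafA1 did not lower had interactions below the threshold: HOXB9 0.08 (adjusted p = 0.103), HOXD10 0.21 (adjusted p = 0.134), HOXD9 0.18 (adjusted p = 0.429), HOXB2 0.11 (adjusted p = 0.461) and HOXA3 0.31 (adjusted p = 0.0952). Their change without iron is part of these values too, so the match is not independent. HOXA3 passed when BafA1 replicate 3 was left out (adjusted p = 0.00548). Across the 31 genes the 2 changes had a Pearson r of 0.812 and a Spearman rho of 0.759, a description over genes measured in the same libraries.

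**Figure D4:**
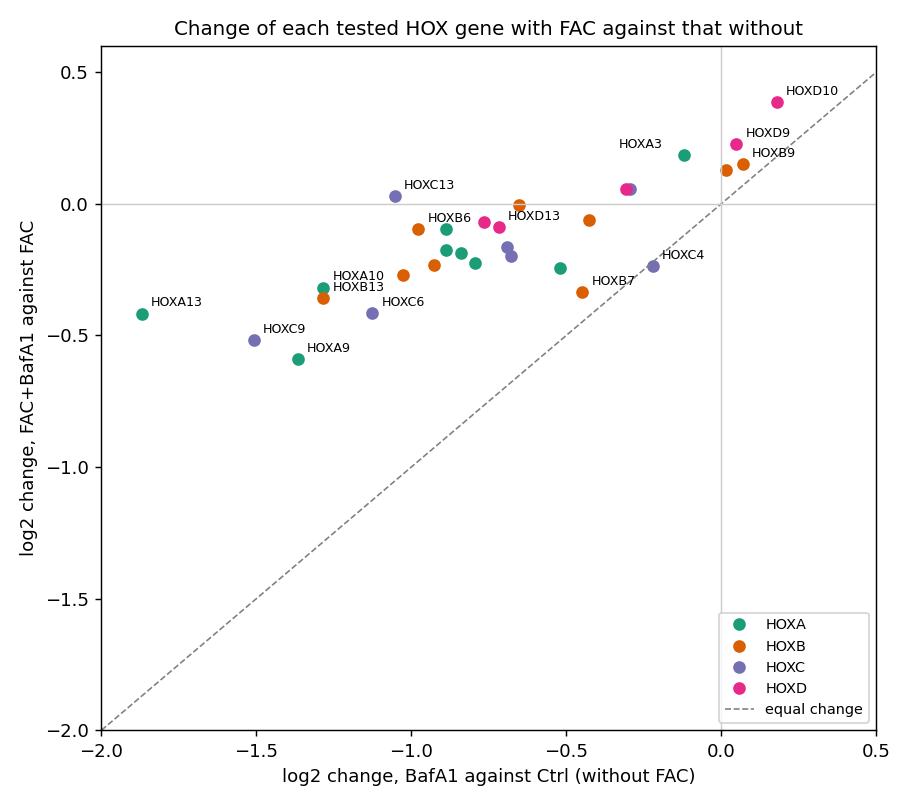
Log2 change in FAC+BafA1 against FAC (y axis) plotted on the log2 change in BafA1 against Ctrl (x axis), 1 point for each of 30 tested HOX genes, coloured by cluster; the dashed line marks equal change. Of these 29 lie above the line and 24 have a smaller absolute change with FAC, while HOXB7 and HOXC4 lie near it.

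FAC alone changed few HOX genes, and 4 of the 6 that changed lie in HOXD. Between FAC and Ctrl cells 6 of 31 genes fell (HOXB6, HOXC13, HOXD9, HOXD10, HOXD11 and HOXD13) and 0 rose, where 4.84% of all genes were called lower and 4.72% higher. In 11 genes the FAC libraries were all below the Ctrl libraries, and the share of all genes that did so was not computed. The HOXD sum was 68.17, 69.66 and 69.17 FPKM in FAC, against 88.19, 90.01 and 90.82 in Ctrl libraries, a ratio of 0.769, and the ratios were 0.953 for HOXA, 0.948 for HOXB and 0.932 for HOXC. Using the values given above, HOXD10 fell by 34.3% (log2 -0.57 ± 0.08, adjusted p = 0.000125) and HOXD13 fell by 18.9% (log2 -0.30 ± 0.04, adjusted p = 0.00034). HOXD11 fell by 20.7% (adjusted p = 0.00544), HOXD9 fell by 34.7% (adjusted p = 0.0465), HOXC13 fell by 21.7% (adjusted p = 0.0431) and HOXB6 fell by 13.9% (adjusted p = 0.0076). HOXD9 and HOXC13 each lost the call in 9 of 12 fits without 1 library, each of the 3 FAC and 3 FAC+BafA1 libraries among them. The others were Ctrl replicates 1 and 3 and BafA1 replicate 3 for HOXD9, and Ctrl replicates 2 and 3 and BafA1 replicate 1 for HOXC13, with adjusted p up to 0.177 and 0.19. HOXD13 and HOXD9 share no exonic base with another gene in GENCODE, while HOXD10 and HOXD11 overlap each other. A processing difference between libraries with and without FAC cannot be told apart from iron here.

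Set against BafA1 cells, FAC+BafA1 cells had higher levels of most HOX genes. Of the 31 genes 24 rose, 23 leaving out HOXA13, and HOXD10 fell, where 38.8% of all genes were called higher and 29.1% lower. With median-of-ratios scaling the balance over all genes turned to 4618 higher and 4660 lower, and 23 HOX genes were higher and 3 lower. The ratios of the cluster sums were 1.66 for HOXA, 1.41 for HOXC, 1.2 for HOXB and 1.05 for HOXD. HOXA13 averaged 6.09 ± 0.19 FPKM in FAC+BafA1 and 2.17 ± 0.41 in BafA1 cells, 2.81-fold higher. HOXB13 was 2.44-fold higher (log2 0.98 ± 0.06, adjusted p = 2.86e-08). HOXB9 was among the 24, but its call was lost with both other scalings (adjusted p of 0.0187 to 0.746 over 20 alternatives) and without BafA1 replicate 2, FAC+BafA1 replicate 2 or FAC+BafA1 replicate 3. HOXD10 averaged 16.9 ± 1.19 FPKM in FAC+BafA1 and 22.1 ± 2.40 in BafA1 cells (log2 -0.36 ± 0.08, adjusted p = 0.00114). This comparison shares the BafA1 libraries with BafA1 against Ctrl, so its direction is not independent of that result. Because it crosses FAC, a processing difference cannot be told apart from iron.

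FAC+BafA1 cells had lower levels of most HOX genes than Ctrl cells. Against Ctrl cells, 20 of 31 genes were lower, 19 leaving out HOXA13, and HOXB9 was higher, where 16.6% of all genes were called lower and 16.2% higher. The sum of all 39 genes was 386.69, 376.57 and 380.85 FPKM in FAC+BafA1, against 461.55, 466.16 and 470.29 in Ctrl libraries, a ratio of 0.818. The same sum in FAC cells, which had no BafA1, gave a ratio to Ctrl of 0.914. For HOXD the ratio to Ctrl was 0.8 in FAC+BafA1 and 0.769 in FAC cells. HOXA13 (ratio 0.579), HOXC6 (0.606), HOXC9 (0.644) and HOXA9 (0.669) had the lowest ratios. HOXA9 was at log2 -0.57 ± 0.04 (adjusted p = 4.42e-07) and HOXB9 at 0.15 ± 0.03 (adjusted p = 0.00118). This comparison shares libraries with those above, and left-out libraries gave 16 to 22 calls, beside 26.9% to 33.3% of all genes. It crosses FAC, so a processing difference cannot be told apart from the treatments.

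**Figure D5:**
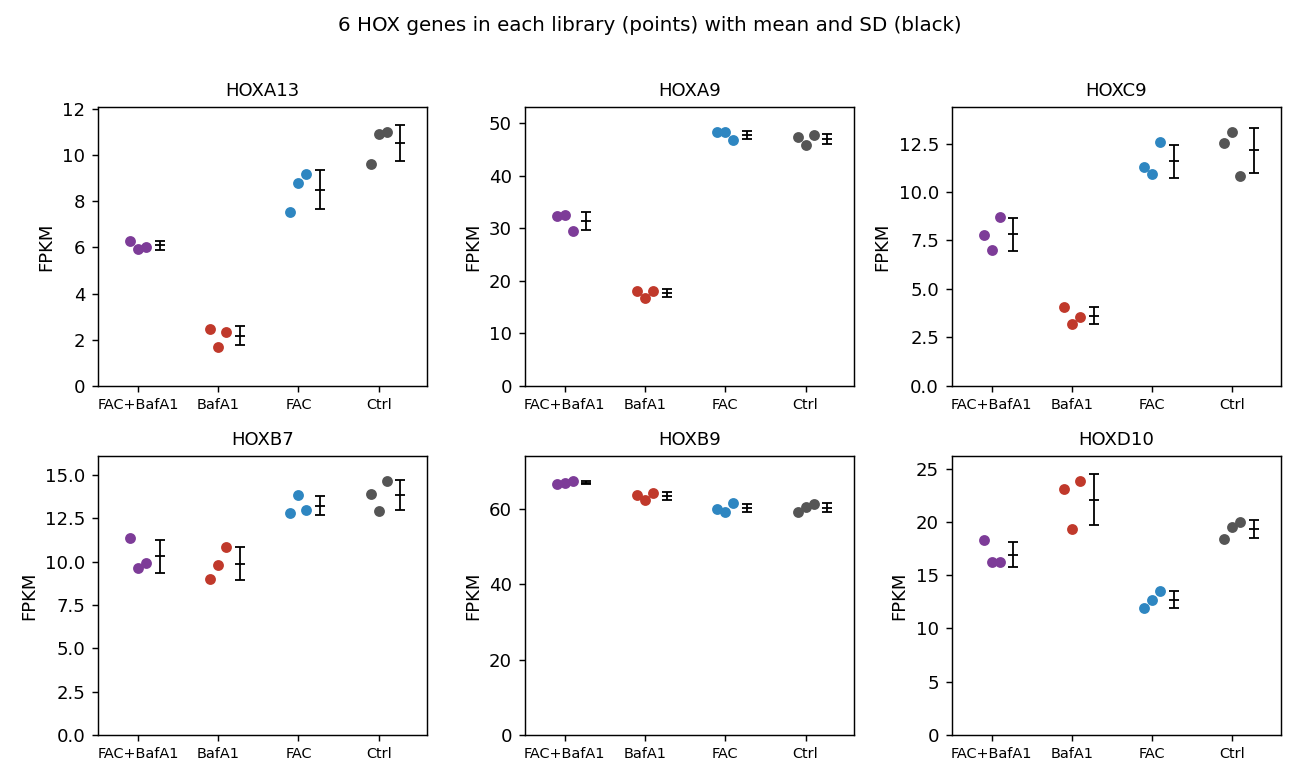
FPKM (y axis) of HOXA13, HOXA9, HOXC9, HOXB7, HOXB9 and HOXD10 in each library (coloured points), with the mean and SD of each group in black. HOXA13, HOXA9 and HOXC9 are lowest in BafA1 cells and intermediate in FAC+BafA1 cells, HOXB7 is low in both, HOXB9 is highest in FAC+BafA1 cells and HOXD10 is lowest in FAC cells.

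The 8 genes under the filter were not tested. HOXC5 was listed at 0 in all 3 BafA1 libraries, against 0.08, 0.19 and 0.27 FPKM in Ctrl libraries, and had 0.12, 0.17 and 0.13 FPKM in FAC+BafA1, against 0.36, 0.21 and 0.45 in FAC libraries. HOXC5 shares 67.3% of its exonic bases on the same strand with ENSG00000273046, an entry that was listed at 0 in every library without FAC, so its level across FAC is uncertain. HOXC12 averaged 0.03 FPKM in BafA1 and 0.21 in Ctrl cells, with no overlap, and HOXD4 averaged 0.623 and 1.15 in the same groups. The others (HOXA2, HOXB1, HOXD1, HOXD3 and HOXD12) lay between 0 and 1.16 FPKM. At 1 FPKM or more in all 3 libraries were 31 members in FAC+BafA1, 29 in BafA1, 31 in FAC and 32 in Ctrl cells.

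Genes fell with BafA1 whether or not they share exons, in a comparison where 37.6% of all genes were called lower and 29.5% higher. Of the 9 tested genes with no exonic overlap, 7 fell and 1 rose in BafA1 against Ctrl (median log2 -0.68), and of the 22 with overlap 19 fell and 0 rose (median -0.84). In FAC+BafA1 against FAC, where 9.49% of all genes were lower and 9.76% higher, 3 of 9 fell and 1 rose (median -0.19) and 9 of 22 fell and 1 rose (median -0.17). The interaction was called positive in 6 of 9 and in 18 of 22, beside 29.5% of all genes. The antisense and intergenic transcripts of the clusters were lower too without iron. Of 11 that passed the filter (26 listed), 3 fell with iron (median -0.08) and 11 without (median -0.58), beside 9.49% and 37.6% of all genes. With iron, the calls of HAGLR and HOXC-AS1 were lost in 6 and 5 of 12 fits that left out 1 library. HOTAIRM1, a noncoding RNA of the HOXA cluster, had 17.12, 16.99 and 15.52 FPKM in BafA1, against 41.57, 40.98 and 39.83 in Ctrl libraries (log2 -1.25 ± 0.05, adjusted p = 7.18e-10). HOTAIRM1 averaged 37.5 ± 1.72 FPKM in FAC+BafA1 and 39.0 ± 1.77 in FAC cells (log2 -0.05, adjusted p = 0.495). HOXA11-AS (log2 -1.32) and HAGLR, at the HOXD cluster (log2 -1.25), fell too without iron.

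Of 14 tested flanking genes (21 listed), 2 fell and 1 rose with BafA1 in the presence of iron (median log2 -0.02), and 8 fell and 5 rose without iron (median -0.15). These counts stand beside 9.49% of all genes lower and 9.76% higher with iron, and 37.6% lower and 29.5% higher without it. ATP5MC1, a subunit of mitochondrial ATP synthase near HOXB, averaged 91.96 ± 1.21 FPKM in BafA1 and 253.2 ± 11.9 in Ctrl cells (log2 -1.45 ± 0.04, adjusted p = 8.1e-11). CALCOCO2, an autophagy receptor near HOXB, averaged 114.1 ± 3.73 FPKM in BafA1 and 59.9 ± 4.08 in Ctrl cells (log2 0.92 ± 0.05, adjusted p = 1e-08). HIBADH near HOXA fell (log2 -0.75 ± 0.04, adjusted p = 3.36e-09), and CALCOCO1 near HOXC rose (log2 0.78 ± 0.07, adjusted p = 1.03e-06).

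Of the 11 TALE cofactors, 4 fell and 1 rose in FAC+BafA1 against FAC cells (median log2 -0.16), and 7 fell and 1 rose in BafA1 against Ctrl cells (median -0.48). This and the lists that follow are to be read beside 9.49% of all genes lower and 9.76% higher with iron, and 37.6% lower and 29.5% higher without it. MEIS1 had 3.43, 3.14 and 4.85 FPKM in BafA1, against 7.37, 7.06 and 7.73 in Ctrl libraries (log2 -0.82 ± 0.12, adjusted p = 6.1e-05). MEIS2, of the same family, fell as well (log2 -0.72, adjusted p = 6.04e-05). MEIS3, also of that family, went the other way, at log2 0.25 without iron (adjusted p = 0.0737) and 0.40 with it (adjusted p = 0.03). With iron, the calls of MEIS2, MEIS3 and PKNOX2 were lost in 7, 3 and 9 of 12 fits that left out 1 library. Among 12 tested genes of retinoic acid signalling (17 listed), 5 fell and 0 rose with iron (median log2 -0.09), and 8 fell and 1 rose without it (median -0.68). ALDH1A2, which makes retinoic acid, had 8.5, 8.42 and 8.49 FPKM in BafA1, against 30.89, 28.5 and 31.49 in Ctrl libraries (log2 -1.72 ± 0.06, adjusted p = 1.66e-10). It had 13.28, 14.58 and 15.06 FPKM in FAC+BafA1, against 30.76, 32.67 and 29.15 in FAC libraries (log2 -1.06 ± 0.06, adjusted p = 2.07e-07). CYP26A1, which degrades retinoic acid (log2 -1.39), and ALDH1A3, another synthetic enzyme (log2 -1.01), fell without iron too.

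Of 8 tested CDX and upstream regulators (11 listed), 0 fell and 2 rose with iron (median log2 -0.06), and 5 fell and 2 rose without it (median -0.29). CDX2, which activates HOX genes in the tail end of the embryo, had 5.53, 5.63 and 6.73 FPKM in BafA1, against 10.42, 11.6 and 11.22 in Ctrl libraries (log2 -0.80 ± 0.09, adjusted p = 4.66e-06). GDF11, a ligand that sets the trunk-to-tail transition in mouse, fell (log2 -1.03 ± 0.09, adjusted p = 7.42e-07).

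Calls among chromatin regulators of the clusters went in both directions, as did those over all genes (37.6% lower and 29.5% higher without iron, 9.49% and 9.76% with it). Of 11 PRC2 genes 1 fell and 1 rose with iron (median log2 0.06), and 4 fell and 5 rose without it (median 0.10). EZH2, the methyltransferase that marks silent HOX genes, had 53.46, 54.09 and 54.99 FPKM in BafA1, against 31.8, 31.71 and 32.86 in Ctrl libraries (log2 0.74 ± 0.03, adjusted p = 1.81e-09). Of 20 PRC1 genes 1 fell and 1 rose with iron (median log2 0.03), and 8 fell and 7 rose without it (median -0.03). CBX2, a reader of the Polycomb mark, had 6.5, 6.28 and 6.15 FPKM in BafA1, against 24.42, 25.58 and 24.94 in Ctrl libraries (log2 -1.83 ± 0.06, adjusted p = 8.1e-11). It averaged 18.0 ± 0.75 FPKM in FAC+BafA1 and 24.6 ± 1.92 in FAC cells (log2 -0.43 ± 0.06, adjusted p = 0.000286).

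Of 14 MLL and COMPASS genes 1 fell and 2 rose with iron (median log2 0.09), and 5 fell and 5 rose without it (median 0.00). KMT2A, the methyltransferase that keeps HOX genes active, averaged 18.4 ± 1.0 FPKM in BafA1 and 9.64 ± 0.96 in Ctrl cells (log2 0.87 ± 0.07, adjusted p = 4.92e-07). Of the 2 tested demethylases of the Polycomb mark (3 listed), enzymes that use iron, 1 rose with iron (median log2 0.36) and both without it (median 1.24). KDM6B had 13.69, 11.16 and 11.47 FPKM in BafA1, against 2.69, 3.79 and 3.97 in Ctrl libraries (log2 1.56 ± 0.15, adjusted p = 1.39e-06). It had 4.79, 5.16 and 5.48 FPKM in FAC+BafA1, against 3.44, 3.75 and 2.25 in FAC libraries (log2 0.58, adjusted p = 0.0159), a call lost without FAC+BafA1 replicate 3, without the filter and in a fit of the 2 groups alone (adjusted p of 0.0101 to 0.0614 over 20 alternatives). KDM6A had 27.43, 27.77 and 29.93 FPKM in BafA1, against 13.75, 15.64 and 14.3 in Ctrl libraries (log2 0.92 ± 0.06, adjusted p = 4.43e-08). KDM6A averaged 16.0 ± 0.18 FPKM in FAC+BafA1 and 14.5 ± 0.97 in FAC cells (log2 0.14, adjusted p = 0.122). Of 9 CTCF and cohesin genes, which fold the clusters, 0 fell and 1 rose with iron (median log2 0.01), and 2 fell and 7 rose without it (median 0.22). STAG2 rose without iron (log2 0.50 ± 0.02, adjusted p = 4.39e-09) and MAZ fell (log2 -0.47 ± 0.03, adjusted p = 6.55e-08).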

How the data were processed

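RNA was sequenced from 12 HEK293T libraries, 3 in each of 4 groups taken from the labels' treatments. Per the labels' protocols a kit for stranded mRNA libraries was used; STAR, RSEM and GRCh38 are named, per the submitters' processing notes, without versions. The authors deposited FPKM rounded to 2 decimals for 56340 rows, of which 3 repeat another ID with 0 throughout and were dropped. FPKM hold no read numbers and were not given to a count model. Steps among low values put depth roughly at 34.5 to 38.0 M fragments per library. At these depths 51.4% to 55.0% of values without FAC and 63.5% to 67.0% with FAC lay within 0.2 of a whole fragment. The depth was chosen to bring values near whole fragments, so these shares do not check it. Precision therefore rests on the spread over libraries.

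Values were analysed as log2(FPKM + 1), which understates changes of low genes, for the 13682 genes averaging 1 FPKM or more. limma 3.58.1 in R 4.3.3 fitted 1 mean per group over all 12 libraries with an intensity trend, and p-values were Benjamini-Hochberg adjusted over all genes, within each of 6 comparisons (5 pairs of groups and the interaction), with calls at 0.05. Errors are SDs over 3 libraries or limma standard errors, and folds are ratios of mean FPKM. The fit was tested on simulated data. Log values correlated at 0.9927 to 0.9952 within groups, and 0 pairs of libraries were identical.

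The HOX genes and the other gene lists were chosen with earlier results of these data known. Values in every library are printed for HOXA13, the highest member of each cluster and the called members with the largest change in 4 comparisons. From each list, called genes with the largest change are named. Some genes that enter the counts are not reported here by name or drawn. Gene positions and overlaps came from GENCODE release 44, promoters from RefSeq. Alternatives were a replicate block, another pseudocount, other filters and scalings, no trend, fits of 2 groups and leaving out each library.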

Additional observations from a re-analysis of the deposited data

Results flagged for a closer look

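The BafA1 change differed with and without FAC in 24 HOX genes, by the interaction tested with limma over all genes. The values are the log2 change in FAC+BafA1 against FAC minus that in BafA1 against Ctrl, and all are positive; that of HOXA13 is given as a description. In HOXA they were 1.45 for HOXA13, 0.97 for HOXA10, 0.79 for HOXA4, 0.78 for HOXA9, 0.71 for HOXA7, 0.65 for HOXA5, 0.57 for HOXA6 and 0.28 for HOXA11. In HOXB they were 0.93 for HOXB13, 0.88 for HOXB6, 0.76 for HOXB5, 0.69 for HOXB8, 0.65 for HOXB3 and 0.36 for HOXB4. In HOXC they were 1.08 for HOXC13, 0.99 for HOXC9, 0.71 for HOXC6, 0.53 for HOXC10, 0.48 for HOXC8 and 0.35 for HOXC11. In HOXD they were 0.69 for HOXD8, 0.63 for HOXD13 and 0.36 for HOXD11. With quantile normalization HOXB4, HOXC8 and HOXC11 no longer passed (highest adjusted p 0.174, 0.0591 and 0.0718), and the other genes named here passed in every alternative that tested them. Because the interaction crosses FAC, a processing difference that alters a BafA1 change cannot be told apart from iron.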

How the results depend on the processing

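With the replicate block, 27, 12, 24, 5, 25 and 20 HOX genes were called (BafA1 against Ctrl, FAC+BafA1 against FAC, interaction, FAC against Ctrl, FAC+BafA1 against BafA1, FAC+BafA1 against Ctrl), where the fit without it called 27, 14, 24, 6, 25 and 21. Same-numbered libraries correlated at -0.074 to 0.138 after group means were removed and other pairs at -0.15 to 0.116. Not every library correlated best with one of its own number. No pairing by number was seen, but 3 libraries per group cannot exclude one. Leaving out each library gave 25 to 28, 10 to 14, 24 to 25, 4 to 7, 23 to 26 and 16 to 22 calls. With a mean of at least 5 FPKM, 21 members were tested, and 15 interactions and 16 genes in FAC+BafA1 against BafA1 were called. Over all genes at that filter, 58.8% and 71.7% were called in these comparisons, in that order. Of 119 recomputed counts, 117 stayed within 1.5 times. Direction turned for genes near zero that were not called: HOXB2 in BafA1 against Ctrl (-0.055, -0.01 and -0.031 without Ctrl replicate 3, BafA1 replicate 1 or BafA1 replicate 3, highest 0.086) and HOXD9 (-0.015 and -0.069 without Ctrl replicate 2 or BafA1 replicate 1, highest 0.215), HOXB3 in FAC+BafA1 against FAC (0.07 and 0.135 without FAC replicate 2 or FAC+BafA1 replicate 3, lowest -0.085), HOXC13 (-0.006 with quantile normalization, -0.008 without FAC replicate 1, highest 0.059), HOXD11 (-0.006 without FAC replicate 3, highest 0.12) and the HOXC4 interaction (0.004 to 0.032 without 1 of 5 libraries: 0.032, 0.031, 0.004, 0.008 and 0.024, lowest -0.086). RBBP7, a PRC2 subunit called lower in BafA1 against Ctrl (-0.164), was at 0.053 with quantile normalization. The cause was not tested. Depth is only estimated, and genes below 1 FPKM were not tested.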
